A study of Mus musculus with 8 samples.

Results

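The genes described here are 10 genes of autophagy and mitochondrial clearance: Ulk1, Atg7, Map1lc3b, Gabarapl1, Gabarapl2, Bnip3l, Bnip3, Fundc1, Sqstm1 and Pink1. They were chosen by symbol, with earlier results of these data known, from the 23337 genes of a table of read counts. All 10 were found and passed the filter on low counts in every comparison. The counts come from RNA sequencing of bone marrow cells of C57BL/6 mice aged 4 months. All mice carried JAK2V617F on 1 allele (JAK2V617F/+), the activated kinase behind polycythemia vera. The 4 groups of 2 libraries each were erythroblasts labelled Plek2-/-, erythroblasts labelled Plek2+/+, progenitors labelled Plek2-/- and progenitors labelled Plek2+/+. Erythroblasts are TER119-positive cells, and progenitors are lineage-negative cells positive for Kit. Plek2 encodes pleckstrin-2, a membrane and actin-linked protein of red cell precursors. The labels do not say how many mice stand behind a library, whether libraries of a group come from separate mice, or how the JAK2 allele is driven, so p-values measure the spread between these samples, which may be technical.

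A red cell precursor loses its mitochondria before it matures, and autophagy is the main known route. The kinase ULK1 starts a membrane cup. ATG7 activates the small ubiquitin-like proteins of the Atg8 family (the LC3 and GABARAP proteins), which are then fixed to the membrane lipid. Receptors on the mitochondrial surface, such as NIX (the product of Bnip3l), BNIP3 and FUNDC1, bind these proteins and draw the mitochondrion into the cup. In mice, loss of Bnip3l leaves mitochondria in circulating red cells, and loss of Ulk1 or Atg7 in blood cells delays their removal. PINK1 marks damaged mitochondria through phosphorylated ubiquitin, and SQSTM1 (p62) links ubiquitin-marked cargo to the Atg8 proteins.

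Some facts of the libraries touch the results that follow. Each library held 16038035 to 23521726 reads. Levels are given in CPM, counts per 1000000 reads, on totals scaled by edgeR's TMM factors. A gene with no read in a library could still have a true level of up to 3 reads, or 0.0983 to 0.235 CPM, by counting error alone. The summed level of 8 measured erythroid markers was 40102 to 43515 CPM in erythroblasts and 981 to 1086 CPM in progenitors, while 9 stem and progenitor markers summed to 160 to 224 CPM in erythroblasts and 948 to 1081 CPM in progenitors. The 10 neutrophil markers, each with counts in every group, summed to 14635 and 13242 CPM in erythroblasts labelled Plek2-/-, 18929 and 21843 CPM in those with the Plek2+/+ label, 18292 and 24650 CPM in progenitors labelled Plek2-/- and 7189 and 4271 CPM in those with the Plek2+/+ label. Plek2 had 616 and 781 counts in erythroblasts labelled Plek2-/- against 1770 and 1894 in those labelled Plek2+/+, but 130 and 173 counts in progenitors labelled Plek2-/- against 29 and 21 in those labelled Plek2+/+. The progenitor counts go against the label, so group names are the labels of the libraries throughout. Xist was at 2.13 to 3.60 CPM in the 4 libraries labelled Plek2-/- and 2523 to 3044 CPM in the 4 labelled Plek2+/+, and the Y-linked gene Ddx3y ran the other way. Sex and the Plek2 label therefore cannot be told apart.

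The first comparison asked how the 10 genes differ between erythroblasts and progenitors, within each label. Bnip3l, Gabarapl2, Sqstm1, Ulk1, Pink1, Map1lc3b and Gabarapl1, 7 of the 10, rose in erythroblasts, in libraries labelled Plek2-/- and in those labelled Plek2+/+. The largest rises among them were those of Bnip3l and Gabarapl2, at 11.0-fold and 11.5-fold with the Plek2-/- label and 12.3-fold and 11.3-fold with the Plek2+/+ label. Atg7 and Bnip3 fell with the Plek2-/- label, and Fundc1 fell with the Plek2+/+ label. Genes were called at an adjusted p below 0.05 in edgeR's quasi-likelihood test with Benjamini-Hochberg adjustment over 13365 genes. By that rule 37.5% of all genes tested were higher and 39.2% lower with the Plek2-/- label, and 36.0% were higher and 37.8% lower with the Plek2+/+ label. Among the 10, 7 were higher and 2 lower with the Plek2-/- label, and 7 were higher and 1 lower with the Plek2+/+ label. Their median log2 fold change was 1.91 with the Plek2-/- label and 2.01 with the Plek2+/+ label, beside medians of -0.07 and -0.06 over all genes tested. Given how the 10 were chosen, these counts and medians describe and do not test. A fold between sorted populations can come from more cells that hold the RNA or from more RNA per cell, and bulk libraries do not tell these apart.

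**Figure D1:**
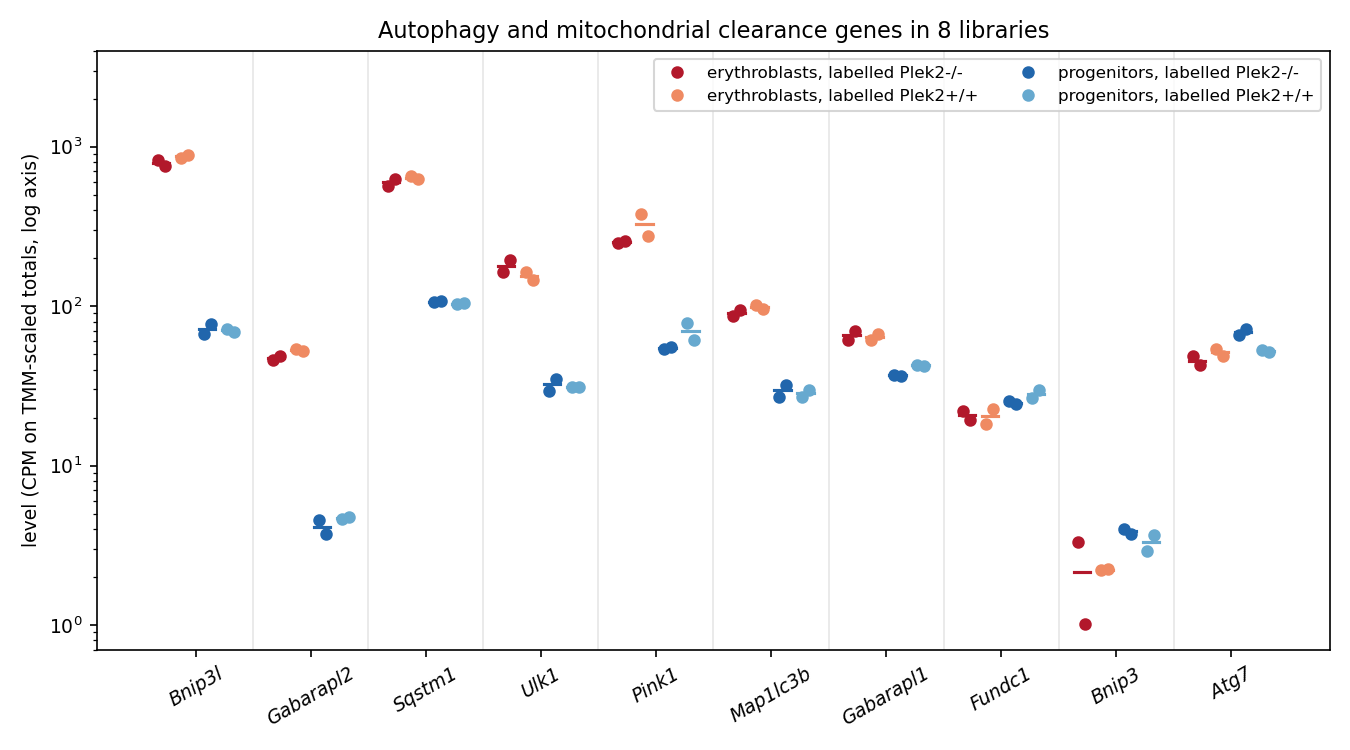
Level of each of the 10 genes in the 8 libraries, in CPM on TMM-scaled totals (log axis); dots are libraries and short bars the means of 2. Bnip3l stands at 758 to 885 CPM in the 4 erythroblast libraries and 67 to 77 CPM in the 4 progenitor libraries, and Bnip3 has the lowest mean in each group, at 1.02 to 4.01 CPM over the libraries.

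Ulk1 encodes the kinase that starts autophagosome formation and lies on chromosome 5 from 110784488 to 110810097, minus strand (all gene positions are GENCODE vM21 on GRCm38). It had 164 and 194 CPM in erythroblasts labelled Plek2-/- and 164 and 145 CPM in those with the Plek2+/+ label, against 29.4 and 35.1 CPM in progenitors labelled Plek2-/- and 31.0 and 31.1 CPM in those with the Plek2+/+ label. All erythroblast libraries lay above all progenitor libraries. The log2 fold change, erythroblasts over progenitors, was 2.47 (SE 0.11, edgeR adjusted p = 3.38e-10) with the Plek2-/- label and 2.32 (SE 0.11, edgeR adjusted p = 6.98e-10) with the Plek2+/+ label. Among 11 other genes of initiation and nucleation, 4 were higher and 4 lower in erythroblasts with either label, 36.4% each way, which is near the shares over all genes (37.5% and 39.2% with the Plek2-/- label, 36.0% and 37.8% with the Plek2+/+ label). Rb1cc1, the scaffold of the ULK1 complex, was 3.77-fold and 3.68-fold higher (here and in later pairs of folds, Plek2-/- label, then Plek2+/+ label), and Becn1, a subunit of the lipid kinase that acts next, was 3.34-fold and 3.25-fold higher. Atg14, which brings that lipid kinase to the forming membrane, was 2.71-fold and 2.14-fold higher.

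Atg7, the activating enzyme for the Atg8 proteins, lies on chromosome 6 from 114643097 to 114860614, plus strand. Its levels were 48.4 and 42.6 CPM in erythroblasts labelled Plek2-/- and 54.1 and 49.0 CPM in those with the Plek2+/+ label, against 65.8 and 71.8 CPM in progenitors labelled Plek2-/- and 53.1 and 51.6 CPM in those with the Plek2+/+ label. The progenitor libraries labelled Plek2-/- stood above the other 6. Atg7 fell in erythroblasts with the Plek2-/- label (log2 fold change -0.60, SE 0.09, edgeR adjusted p = 6.75e-05). With the Plek2+/+ label the groups overlapped, and the value was -0.02 (95% interval -0.22 to 0.18, edgeR adjusted p = 0.849). With another scaling of the libraries, given below, that value was -0.83 and passed the test.

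The 10 include 3 genes of the Atg8 family. Gabarapl2 (chromosome 8, 111940703 to 111953612, plus strand) had 45.9 and 48.7 CPM in erythroblasts labelled Plek2-/- and 53.6 and 52.1 CPM in those with the Plek2+/+ label, against 4.52 and 3.73 CPM in progenitors labelled Plek2-/- and 4.60 and 4.75 CPM in those with the Plek2+/+ label. Its counts in progenitors were 98 to 141 reads, well above the limit of a count of 0. The log2 fold change was 3.52 (SE 0.12, edgeR adjusted p = 2.24e-11) with the Plek2-/- label and 3.50 (SE 0.12, edgeR adjusted p = 2.23e-11) with the Plek2+/+ label.

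Map1lc3b, which encodes LC3B (chromosome 8, 121590361 to 121598760, plus strand), had 86.9 and 94.6 CPM in erythroblasts labelled Plek2-/- and 101 and 95.4 CPM in those with the Plek2+/+ label, against 27.0 and 32.2 CPM in progenitors labelled Plek2-/- and 26.9 and 29.9 CPM in those with the Plek2+/+ label. It was 3.06-fold higher in erythroblasts with the Plek2-/- label (edgeR adjusted p = 1.03e-08) and 3.46-fold higher with the Plek2+/+ label (edgeR adjusted p = 4.34e-09). Gabarapl1 (chromosome 6, 129533160 to 129542346, plus strand) stood at closer levels in the 2 populations: 61.7 and 69.6 CPM in erythroblasts labelled Plek2-/- and 61.6 and 66.6 CPM in those with the Plek2+/+ label, against 37.0 and 36.6 CPM in progenitors labelled Plek2-/- and 42.8 and 42.1 CPM in those with the Plek2+/+ label. Its log2 fold change was 0.84 (SE 0.09, edgeR adjusted p = 1.77e-06) with the Plek2-/- label and 0.59 (SE 0.09, edgeR adjusted p = 4.65e-05) with the Plek2+/+ label. Of the 7 rises, that of Gabarapl1 was lost with another scaling of the libraries, on which its value was 0.05 with the Plek2-/- label and -0.22 with the Plek2+/+ label.

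Set per kilobase of exon and summed over 5 Atg8 genes (these 3, Gabarap and Map1lc3a), the family's level was 276 and 286 CPM per kb in erythroblasts labelled Plek2-/- and 283 and 301 CPM per kb in those with the Plek2+/+ label, against 117 and 122 CPM per kb in progenitors labelled Plek2-/- and 111 and 112 CPM per kb in those with the Plek2+/+ label. Gabarap held 66.9% to 73.1% of that sum in all 8 libraries. Gabarapl2 held 9.92% to 11.3% of it in the erythroblast libraries and 1.82% to 2.54% in the progenitor libraries. The share of Gabarapl1 ran the other way, at 11.9% to 13.4% in erythroblasts and 16.4% to 21.1% in progenitors.

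Bnip3l, the gene of the mitochondrial receptor NIX, lies on chromosome 14 from 66985239 to 67008877, minus strand. It had 825 and 758 CPM in erythroblasts labelled Plek2-/- and 854 and 885 CPM in those with the Plek2+/+ label, against 67 and 77 CPM in progenitors labelled Plek2-/- and 72 and 68.9 CPM in those with the Plek2+/+ label. The log2 fold change was 3.46 (SE 0.10, edgeR adjusted p = 3.78e-12) with the Plek2-/- label and 3.63 (SE 0.10, edgeR adjusted p = 2.9e-12) with the Plek2+/+ label. The annotation also lists a processed pseudogene of Bnip3l, and how reads that match both were counted is not given in the sources used here.

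Bnip3, its closest relative, is best known as a receptor induced by low oxygen, and it did not rise. On chromosome 7 from 138890836 to 138909519 (minus strand), it had 3.29 and 1.02 CPM in erythroblasts labelled Plek2-/- and 2.20 and 2.24 CPM in those with the Plek2+/+ label, against 4.01 and 3.73 CPM in progenitors labelled Plek2-/- and 2.91 and 3.68 CPM in those with the Plek2+/+ label. These levels rest on 15 to 114 reads a library. The populations did not overlap within a label, with erythroblasts lower under either. The fall passed the test with the Plek2-/- label (log2 fold change -0.88, SE 0.36, edgeR adjusted p = 0.0372) but not with the Plek2+/+ label (-0.58, SE 0.35, edgeR adjusted p = 0.15). The first call was lost without replicate 2 of the erythroblasts labelled Plek2-/- (-0.24, adjusted p = 0.47) and without either progenitor library of that label (adjusted p = 0.0934 and 0.0658), and the value was -1.90 without replicate 1 of those erythroblasts. An antisense gene shares 504 exon bases with Bnip3, and the strand setting of the counting is not given, so their reads cannot be told apart.

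Fundc1, the third receptor of the outer mitochondrial membrane, is X-linked (chromosome X, 17556564 to 17572325, minus strand). Its levels were 22.1 and 19.4 CPM in erythroblasts labelled Plek2-/- and 18.2 and 22.5 CPM in those with the Plek2+/+ label, against 25.3 and 24.4 CPM in progenitors labelled Plek2-/- and 26.5 and 29.6 CPM in those with the Plek2+/+ label. Erythroblasts were lower with either label, without overlap. The fall passed the test with the Plek2+/+ label (log2 fold change -0.47, SE 0.12, edgeR adjusted p = 0.00366) and missed it with the Plek2-/- label (-0.26, SE 0.12, edgeR adjusted p = 0.069). Without replicate 1 of the erythroblasts labelled Plek2+/+ the first value was -0.25 and missed it too (adjusted p = 0.123).

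Sqstm1 encodes p62, the ubiquitin-binding cargo receptor, and lies on chromosome 11 from 50199366 to 50210827, minus strand. It had 570 and 624 CPM in erythroblasts labelled Plek2-/- and 653 and 626 CPM in those with the Plek2+/+ label, against 106 and 107 CPM in progenitors labelled Plek2-/- and 103 and 104 CPM in those with the Plek2+/+ label. The 4 progenitor libraries were close to each other whatever the label. The log2 fold change was 2.48 (SE 0.08, edgeR adjusted p = 1.72e-11) with the Plek2-/- label and 2.63 (SE 0.08, edgeR adjusted p = 1.09e-11) with the Plek2+/+ label. Sqstm1 shares 580 exon bases with Mrnip on the other strand, whose reads in that stretch cannot be told apart from its own. Map1lc3b and Gabarapl1 share 58 and 47 exon bases with genes on the other strand.

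Pink1, the kinase that marks damaged mitochondria, lies on chromosome 4 from 138313409 to 138326307, minus strand. It had 249 and 257 CPM in erythroblasts labelled Plek2-/- and 380 and 276 CPM in those with the Plek2+/+ label, against 54.2 and 55.2 CPM in progenitors labelled Plek2-/- and 78.3 and 61.4 CPM in those with the Plek2+/+ label. The library labelled Plek2+/+ with replicate number 1 was the highest of its population in both cases. Pink1 was 4.63-fold higher in erythroblasts with the Plek2-/- label (edgeR adjusted p = 1.08e-08) and 4.71-fold higher with the Plek2+/+ label (edgeR adjusted p = 1.01e-08).

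**Figure D2:**
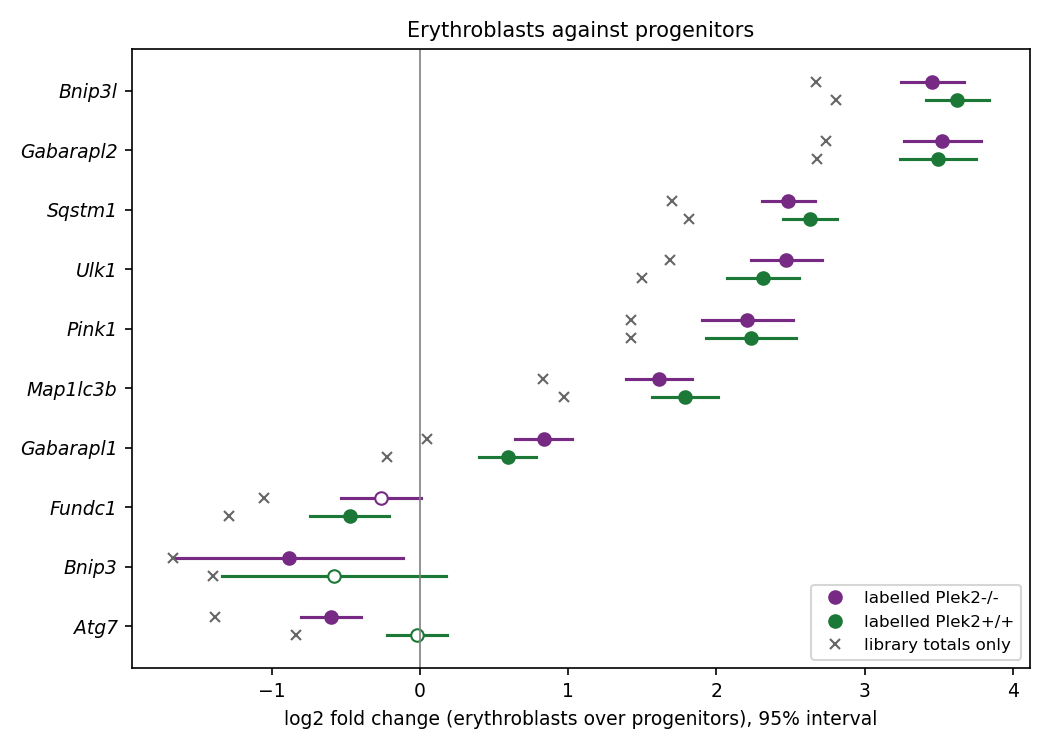
Log2 fold change of the 10 genes, erythroblasts over progenitors, with 95% intervals, for libraries labelled Plek2-/- (purple) and Plek2+/+ (green); filled circles passed the edgeR test at adjusted p below 0.05 and crosses give the value on library totals only. The upper 7 genes lie right of 0 with TMM scaling, and on library totals Gabarapl1 moves to 0.05 (Plek2-/- label) and -0.22 (Plek2+/+ label).

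The population contrast depends on how library totals are made comparable, since the TMM factors were 0.738 to 0.772 in erythroblasts and 1.298 to 1.328 in progenitors. On library totals alone, the median log2 fold change of all genes moved to -0.86 with the Plek2-/- label and -0.87 with the Plek2+/+ label. Of all genes, 2307 were then called higher and 8957 lower with the Plek2-/- label, in place of 5009 and 5242. With the Plek2+/+ label the counts were 2111 and 9171 in place of 4818 and 5047. Among the 10 genes, 6 were higher and 3 lower with the Plek2-/- label, and 6 were higher and 4 lower with the Plek2+/+ label. Bnip3l, Gabarapl2, Sqstm1, Ulk1, Pink1 and Map1lc3b were higher on this scale too, with log2 fold changes of 0.83 to 2.74 with the Plek2-/- label and 0.98 to 2.81 with the Plek2+/+ label. Gabarapl1 stood at 0.05 (edgeR adjusted p = 0.613) with the Plek2-/- label and at -0.22 (edgeR adjusted p = 0.032) with the Plek2+/+ label, both above the median of all genes on that scale. Atg7, Bnip3 and Fundc1 were called lower with both labels on library totals. With TMM scaling each of them was called with 1 label only.

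With TMM scaling, all 10 neutrophil markers were lower in erythroblasts than in progenitors with the Plek2-/- label. With the Plek2+/+ label all 10 were higher. Monocyte and macrophage markers were split, with 7 of 10 higher and 3 lower in erythroblasts under either label. Their sum was 1165 to 1365 CPM in erythroblasts and 716 to 820 CPM in progenitors, with 0 of 10 at a count of 0. The part of neutrophil, monocyte or macrophage RNA in the values of the 10 genes was not tested.

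Ordered by level per kilobase of exon, the 10 genes formed a steep series in erythroblasts. Bnip3l came first, at 241 ± 14.5 CPM per kb with the Plek2-/- label and 265 ± 6.61 CPM per kb with the Plek2+/+ label (SD, n = 2 each). Sqstm1 followed at means of 212 and 227 CPM per kb, and then Pink1 at 94.7 and 123 CPM per kb (means, Plek2-/- label, then Plek2+/+ label). After these came Gabarapl1, Ulk1 and Gabarapl2 at 28.2 to 36.1 CPM per kb. In that group Gabarapl1 and Ulk1 overlapped between libraries with the Plek2-/- label, and Gabarapl2 and Ulk1 with the Plek2+/+ label. Map1lc3b stood at 17.5 and 19 CPM per kb, Atg7 at 11.1 and 12.6, Fundc1 at 9.01 and 8.82, and Bnip3 at 1.16 and 1.2 CPM per kb.

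In progenitors the span was narrower. Sqstm1 led at 37.8 and 36.6 CPM per kb, and Bnip3l, Pink1 and Gabarapl1 lay together at 20.2 to 26.1 CPM per kb. In that group Bnip3l overlapped Pink1, and Pink1 overlapped Gabarapl1, with the Plek2-/- label, and Pink1 overlapped Gabarapl1 with the Plek2+/+ label. Gabarapl2 was at 2.46 and 2.79 CPM per kb, and Bnip3 was lowest at 2.09 and 1.78 CPM per kb. Exon lengths are unions over annotated basic transcripts, so a gene with a long, little-used exon is set too low in this order.

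The 5 genes with the pattern most like that of Bnip3l over the 8 libraries, among 5607 genes with a mean of at least 5 log2 CPM, were Ccndbp1, Slc25a38, Dnajb4, Hist3h2a and Mtfr1. Likeness was the root mean square difference between log2 CPM profiles after each gene's own mean was removed, and it was 0.10 to 0.12 log2 units for these 5. Their log2 fold changes, erythroblasts over progenitors, were 3.27 to 3.66 with the Plek2-/- label and 3.43 to 3.67 with the Plek2+/+ label. They were chosen on these libraries, so the values describe and do not test.

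The rest of the pathway was read from 6 lists of 105 genes, of which 104 were tested. The lists were chosen with earlier results of these data known and hold the erythroid factors Klf1 and Gata1. Their shares therefore describe and do not test. With the Plek2-/- label 60 were higher in erythroblasts and 24 lower (57.7% and 23.1%, beside 37.5% and 39.2% of all genes; median log2 fold change 0.55). With the Plek2+/+ label 55 were higher and 25 lower (52.9% and 24.0%, beside 36.0% and 37.8% of all genes; median 0.43). On library totals alone 34 were higher and 52 lower with the Plek2-/- label (32.7% and 50.0%, beside 17.3% and 67% of all genes), and 35 were higher and 56 lower with the Plek2+/+ label (33.7% and 53.8%, beside 15.8% and 68.6% of all genes). The genes of these lists named with a fold between the populations had the same call on either scaling.

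Of 20 genes that process and place Atg8 proteins, 14 were higher and 4 lower with the Plek2-/- label, beside 37.5% and 39.2% of all genes. With the Plek2+/+ label 13 were higher and 3 lower, beside 36.0% and 37.8% of all genes. Atg4a, a protease that trims Atg8 proteins before lipid is attached and removes them afterwards, had 166 and 176 CPM in erythroblasts labelled Plek2-/- and 169 and 176 CPM in those with the Plek2+/+ label, against 5.61 and 5.11 CPM in progenitors labelled Plek2-/- and 5.17 and 5.29 CPM in those with the Plek2+/+ label. It was 32.0-fold higher with the Plek2-/- label (edgeR adjusted p = 3.33e-13) and 32.8-fold higher with the Plek2+/+ label (edgeR adjusted p = 3.02e-13), a larger fold than that of any of the 10 genes. A second protease of this family, Atg4d, was 7.79-fold and 7.92-fold higher. Wipi2, which reads the membrane lipid at the forming cup, was 4.63-fold and 4.04-fold higher.

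Of 11 cargo receptors beyond the 10, 9 were higher and 1 lower with the Plek2-/- label (81.8% and 9.1%, beside 37.5% and 39.2% of all genes). With the Plek2+/+ label 8 were higher and 1 lower (72.7% and 9.1%, beside 36.0% and 37.8% of all genes). Ncoa4, the receptor that delivers ferritin to the lysosome and so frees iron, averaged 118 ± 2.01 CPM in erythroblasts labelled Plek2-/- and 135 ± 2.37 CPM in those with the Plek2+/+ label, against 14.8 ± 0.287 CPM in progenitors labelled Plek2-/- and 12.7 ± 0.152 CPM in those with the Plek2+/+ label (SD over 2 libraries a group). Its rises were 7.99-fold and 10.6-fold. Optn, a ubiquitin-binding receptor, was 5.66-fold and 6.87-fold higher, and Calcoco1, a receptor for the endoplasmic reticulum, was 4.58-fold and 5.01-fold higher.

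Among 18 genes of ubiquitin-driven mitophagy and mitochondrial shape, 11 were higher and 1 lower with the Plek2-/- label (61.1% and 5.6%, beside 37.5% and 39.2% of all genes). With the Plek2+/+ label 9 were higher and 5 lower (50.0% and 27.8%, beside 36.0% and 37.8% of all genes). March5, a ubiquitin ligase of the outer mitochondrial membrane, was 8.72-fold and 8.88-fold higher. Usp15, a deubiquitinase known to oppose parkin, was 5.60-fold and 5.71-fold higher, and Mff, the receptor for the fission GTPase, was 4.43-fold and 5.07-fold higher. Of 18 fusion and lysosome genes, 8 were higher and 7 lower with the Plek2-/- label (44.4% and 38.9%, near the 37.5% and 39.2% of all genes), and 8 were higher and 5 lower with the Plek2+/+ label (44.4% and 27.8%, beside 36.0% and 37.8% of all genes). The proteases Ctsb and Ctsd were 4.77-fold and 3.16-fold higher with the Plek2-/- label, and 4.94-fold and 3.48-fold higher with the Plek2+/+ label. The table's 1700021K19Rik is Rubcn, an inhibitor of autophagosome maturation, which was 2.43-fold and 2.09-fold lower.

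Nutrient and transcriptional control genes split 14 higher and 7 lower of 26 with the Plek2-/- label (53.8% and 26.9%, beside 37.5% and 39.2% of all genes). With the Plek2+/+ label 13 were higher and 7 lower (50.0% and 26.9%, beside 36.0% and 37.8% of all genes). Klf1 and Gata1, erythroid transcription factors, were 13.4-fold and 7.48-fold higher with the Plek2-/- label and 13.3-fold and 7.10-fold higher with the Plek2+/+ label. Klf1 is also on the erythroid marker list. Sesn2, an inhibitor of the growth kinase complex mTORC1, was 7.56-fold and 7.99-fold higher.

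**Figure D3:**
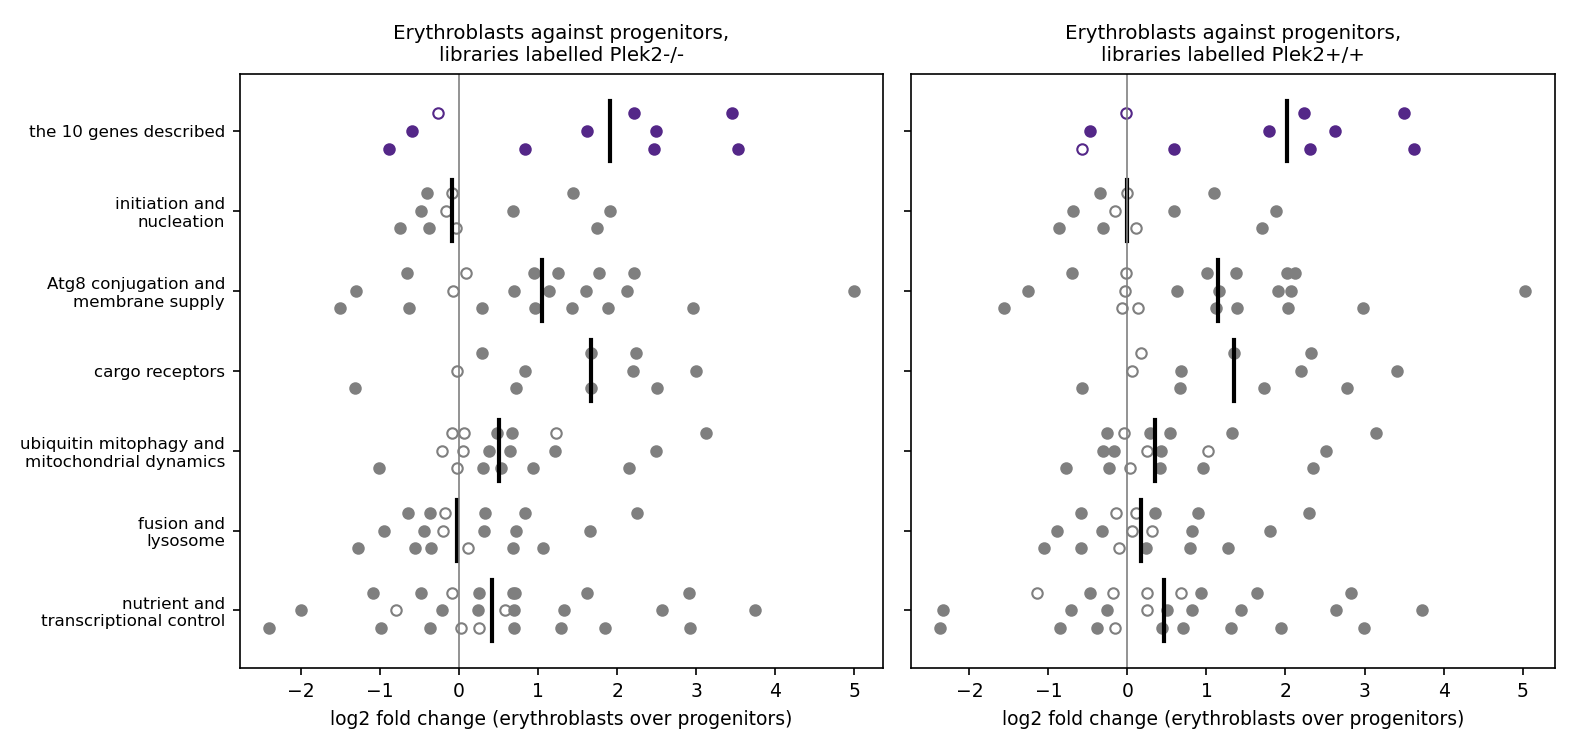
Log2 fold changes, erythroblasts over progenitors, of the 10 genes (purple) and of 6 lists of other pathway genes (grey), for libraries labelled Plek2-/- (left) and Plek2+/+ (right). Each circle is a gene, filled where it passed the edgeR test, and black bars are medians, which are 1.91 (Plek2-/- label) and 2.01 (Plek2+/+ label) for the 10 genes.

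Since 7 of the 10 genes rose together, their promoters were searched for 4 motifs. RefSeq promoters on GRCm38.p6 were found for 9 of the 10, all but Bnip3l, which was not searched. The window was the 250 bases before the start, read on both strands. The GATA motif (AGATAA or AGATAG, or the same with T as first letter) was in 1 of 9, that of Pink1, and in 26.5% of 32851 promoters. The E-box CACGTG, the core of the sites of TFEB-type factors, was in those of Atg7 and Bnip3 and in 6.02% of all. ACGTG, the core of the hypoxia response element, which overlaps the E-box, was in those of Atg7, Bnip3 and Gabarapl2 and in 16.6% of all. The FOXO motif TGTTTAC was in 0 of 9 and in 3.17% of all. A match is a run of letters, not a site of binding. The windows of Gabarapl2 (chr8:111940453-111940702, plus strand) and Pink1 (chr4:138326297-138326546, minus strand) are shown whole, as promoters of genes that rose, and stretches of those of Atg7 (chr6:114670944-114670989, plus strand) and Bnip3 (chr7:138909589-138909634, minus strand) as the pair with the E-box. Each reads from 5′ to 3′ on the strand of the gene, with motif matches in capitals. The RefSeq starts used for Atg7 and Fundc1 lie inside the GENCODE genes, and so do their whole windows. The Atg7 stretch shown is thus not upstream of the GENCODE start of that gene. The window of Gabarapl2 lies wholly upstream of its gene, and the others run partly into theirs.
Gabarapl2: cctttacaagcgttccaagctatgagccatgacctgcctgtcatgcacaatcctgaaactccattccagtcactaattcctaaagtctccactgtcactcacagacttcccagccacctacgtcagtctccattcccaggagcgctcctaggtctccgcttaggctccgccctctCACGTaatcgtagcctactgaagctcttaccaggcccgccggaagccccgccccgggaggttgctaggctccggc
Pink1: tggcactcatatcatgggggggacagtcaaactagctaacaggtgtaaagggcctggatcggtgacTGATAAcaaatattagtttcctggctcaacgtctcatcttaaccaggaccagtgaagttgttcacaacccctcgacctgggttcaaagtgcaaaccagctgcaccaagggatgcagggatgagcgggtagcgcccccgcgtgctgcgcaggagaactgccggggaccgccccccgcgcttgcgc
Atg7: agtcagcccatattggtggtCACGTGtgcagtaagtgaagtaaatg
Bnip3: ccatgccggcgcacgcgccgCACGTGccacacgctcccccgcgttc

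The second comparison set libraries labelled Plek2-/- against those labelled Plek2+/+ in erythroblasts, the cells in which pleckstrin-2 is best known. The edgeR test called 0 of the 10 genes, where it called 2.84% of 12241 genes, 22 higher and 326 lower. At an unadjusted p below 0.05 there was 1 of the 10, Pink1, where 14.7% of all genes were below it, and DESeq2 called 0 of the 10. Log2 fold changes, Plek2-/- over Plek2+/+, ran from -0.37 for Pink1 to 0.22 for Ulk1, with a median of -0.10 beside 0.01 for all genes. Bnip3l averaged 791 ± 47.4 CPM with the Plek2-/- label and 869 ± 21.7 CPM with the Plek2+/+ label (SD, n = 2 each), a difference of -0.13 (95% interval -0.34 to 0.09, edgeR adjusted p = 0.61). For Bnip3 the interval was wide, from -1.002 to 0.86, and its replicate values were 3.29 and 1.02 CPM with the Plek2-/- label.

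Pink1 had the lowest p of the 10 in erythroblasts. It had 249 and 257 CPM with the Plek2-/- label against 380 and 276 CPM with the Plek2+/+ label. The log2 fold change was -0.37 (SE 0.13, 95% interval -0.64 to -0.09, edgeR adjusted p = 0.179). The progenitors gave a like value: 54.2 and 55.2 CPM with the Plek2-/- label against 78.3 and 61.4 CPM with the Plek2+/+ label, or -0.31 (SE 0.11, 95% interval -0.57 to -0.05, edgeR adjusted p = 0.208). Both missed the test. With no filter on low counts Pink1 passed in erythroblasts (adjusted p = 0.0126) and in progenitors (adjusted p = 0.0138). In progenitors it also passed without replicate 1 (adjusted p = 0.0326) or replicate 2 (adjusted p = 0.0454) of the Plek2-/- label. Leaving out replicate 1 of the Plek2+/+ label brought the value to -0.11 in erythroblasts and -0.12 in progenitors. Leaving out replicate 2 of that label brought it to -0.60 (adjusted p = 0.0641) in erythroblasts and -0.48 (adjusted p = 0.114) in progenitors.

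Of the other pathway genes, 0 of 103 passed the edgeR test in erythroblasts. Without adjustment 11 had a p below 0.05, or 10.7%, less than the 14.7% of all genes, and by DESeq2 0 passed. In the same libraries 7 of 10 neutrophil markers, 4 of 9 B cell markers and 3 of 7 mast cell, basophil and eosinophil markers were lower with the Plek2-/- label, and 0 of 8 erythroid markers were called by edgeR, with 0 at an unadjusted p below 0.05. The mast cell, basophil and eosinophil markers summed to 1296 and 874 CPM with the Plek2-/- label, against 2044 and 2435 CPM with the Plek2+/+ label.

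In progenitors, 1 of the 10 genes passed, Atg7, where 4.91% of 13168 genes did, 593 higher and 53 lower. Its 65.8 and 71.8 CPM with the Plek2-/- label lay above the 53.1 and 51.6 CPM with the Plek2+/+ label. The rise was 1.35-fold (log2 fold change 0.44, SE 0.07, 95% interval 0.26 to 0.61, edgeR adjusted p = 0.0149). The call was lost without replicate 1 (log2 fold change 0.46, adjusted p = 0.119) or replicate 2 (0.41, adjusted p = 0.248) of the progenitors labelled Plek2+/+. The other 9 genes ranged from -0.31 to 0.26 and missed the test. Bnip3l differed by 0.07 (95% interval -0.12 to 0.27) and Gabarapl1 by -0.16 (95% interval -0.33 to 0.0032). Without replicate 1 of the progenitors labelled Plek2-/-, Bnip3l was at 0.17 and Ulk1 at 0.22. Without replicate 2 of that label Bnip3l was at -0.03 and Ulk1 at -0.04.

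Of 104 other pathway genes tested in progenitors, 5 passed, all higher with the Plek2-/- label. That is 4.8%, near the 4.91% of all genes, of whose 646 calls 593 were higher too. Atg3, the enzyme that takes Atg8 proteins over from ATG7 and fixes them to lipid, was among them, at 73.4 and 75.8 CPM with the Plek2-/- label against 58.2 and 58.1 CPM with the Plek2+/+ label (log2 fold change 0.40, SE 0.07, edgeR adjusted p = 0.0128). Wipi1, a reader of the membrane lipid at the forming cup, was 1.55-fold higher (edgeR adjusted p = 0.029). Mlst8, a subunit of the mTOR complexes, was 1.40-fold higher (edgeR adjusted p = 0.00817), and the AMP kinase subunit Prkab1 1.25-fold higher (edgeR adjusted p = 0.0483). On other settings Prkab1 lost its call on library totals (adjusted p = 0.105), with DESeq2 (0.0911), with all 8 libraries in the fit (0.0976) and with a replicate block (0.0501), and Wipi1 with all 8 libraries in the fit (0.0779). All 5 calls were lost without either library of the progenitors labelled Plek2+/+, with adjusted p of 0.103 to 0.553. The further conjugation genes Atg5, Atg12, Atg10 and Atg16l1, picked out after their values were seen, had log2 fold changes of -0.04 to 0.10 in progenitors and missed the test.

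Neutrophil markers also differed between the labels in progenitors. All 10 were higher in progenitors labelled Plek2-/-, with a median log2 fold change of 1.91, and their sum was 18292 and 24650 CPM there, against 7189 and 4271 CPM in progenitors labelled Plek2+/+. In erythroblasts 7 of the 10 were lower with the Plek2-/- label, and there Atg7 had 48.4 and 42.6 CPM with the Plek2-/- label against 54.1 and 49.0 CPM with the Plek2+/+ label. That Atg7 difference missed the test (edgeR adjusted p = 0.498). In progenitors the other marker lists had 0 calls, but for 1 of 7 megakaryocyte markers, which was higher. Of mast cell, basophil and eosinophil markers, 6 of 7 had an unadjusted edgeR p below 0.05 (median log2 fold change -0.44). So did 4 of 8 erythroid (0.42) and 6 of 10 monocyte and macrophage markers (0.47). The counts were 3 of 9 stem and progenitor, 2 of 7 megakaryocyte and 1 of 9 B cell markers, beside 17.3% of all genes. The part of RNA of neutrophils or of these other cells in the Atg7 and Atg3 values was not tested.

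**Figure D4:**
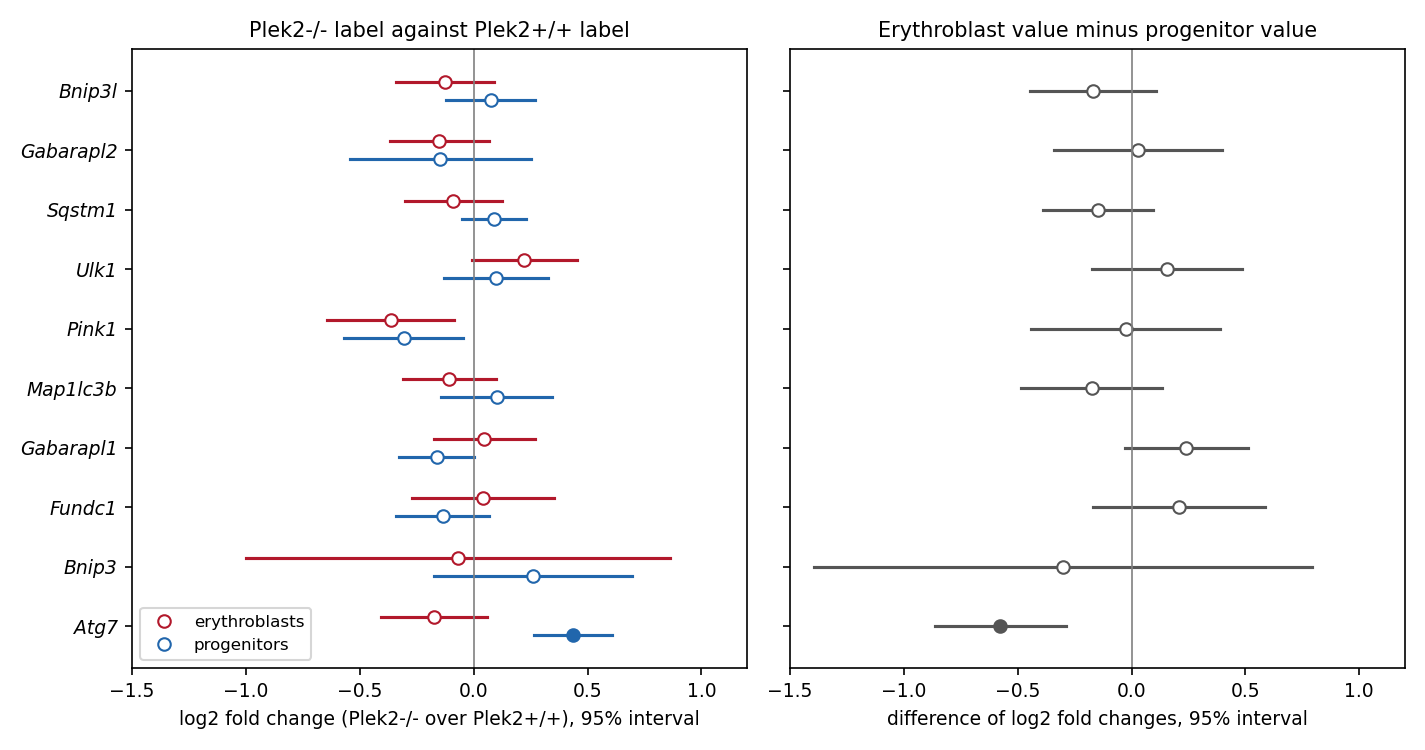
Left: log2 fold change of the 10 genes, Plek2-/- label over Plek2+/+ label, with 95% intervals, in erythroblasts (red) and progenitors (blue). Right: the erythroblast value minus the progenitor value from the fit of all 8 libraries. Filled circles passed the edgeR test, which of the 10 genes Atg7 alone did, in progenitors (0.44) and for the difference (-0.58).

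The third comparison asked whether the difference between labels was itself different in erythroblasts and progenitors. This interaction, the log2 fold change in erythroblasts minus that in progenitors, also equals the difference between the population contrasts of the 2 labels. It was called for 5.55% of 13365 genes (31 higher, 711 lower) and for 1 of the 10, Atg7, at -0.58 (SE 0.13, 95% interval -0.87 to -0.29, edgeR adjusted p = 0.021). Leaving out a single library ended that call in 4 of 8 cases: replicate 1 of the erythroblasts labelled Plek2+/+ (adjusted p = 0.0519), replicate 2 of the progenitors labelled Plek2-/- (adjusted p = 0.0689), and replicate 1 (adjusted p = 0.0788) or replicate 2 (adjusted p = 0.123) of the progenitors labelled Plek2+/+. The value kept its sign in all 8, from -0.71 to -0.51. For Bnip3l the interaction was -0.17 (95% interval -0.44 to 0.11) and for Pink1 -0.03 (95% interval -0.44 to 0.39). For Bnip3 and Fundc1, each called in the population contrast of 1 label, it was -0.30 (edgeR adjusted p = 0.804) and 0.21 (edgeR adjusted p = 0.57), so a difference between the labels was not shown for them.

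The interaction passed the test for 4 of 104 other pathway genes, all negative. That is 3.8%, less than the 5.55% of all genes, of whose 742 calls 711 were negative too. Atg3 stood at 50.5 and 45.6 CPM in erythroblasts labelled Plek2-/- against 58.2 and 56.4 CPM in those with the Plek2+/+ label, while its progenitor values ran the other way, and its interaction was -0.61 (SE 0.12, edgeR adjusted p = 0.00671). Mlst8 had -0.70 (edgeR adjusted p = 0.00284), Fam134b, a receptor for the endoplasmic reticulum now named Retreg1, had -0.73 (edgeR adjusted p = 0.0181), and Tfeb, a transcription factor of lysosomal genes, had -0.70 (edgeR adjusted p = 0.0282, and 0.0529 on library totals). Mlst8 kept its call whichever library was left out, and Atg3 lost it in 1 of 8 cases (without replicate 2 of the progenitors labelled Plek2+/+, adjusted p = 0.0512). All 10 neutrophil markers also had a negative interaction past the test, with a median of -2.43, and their part in these values was not tested.

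**Figure D5:**
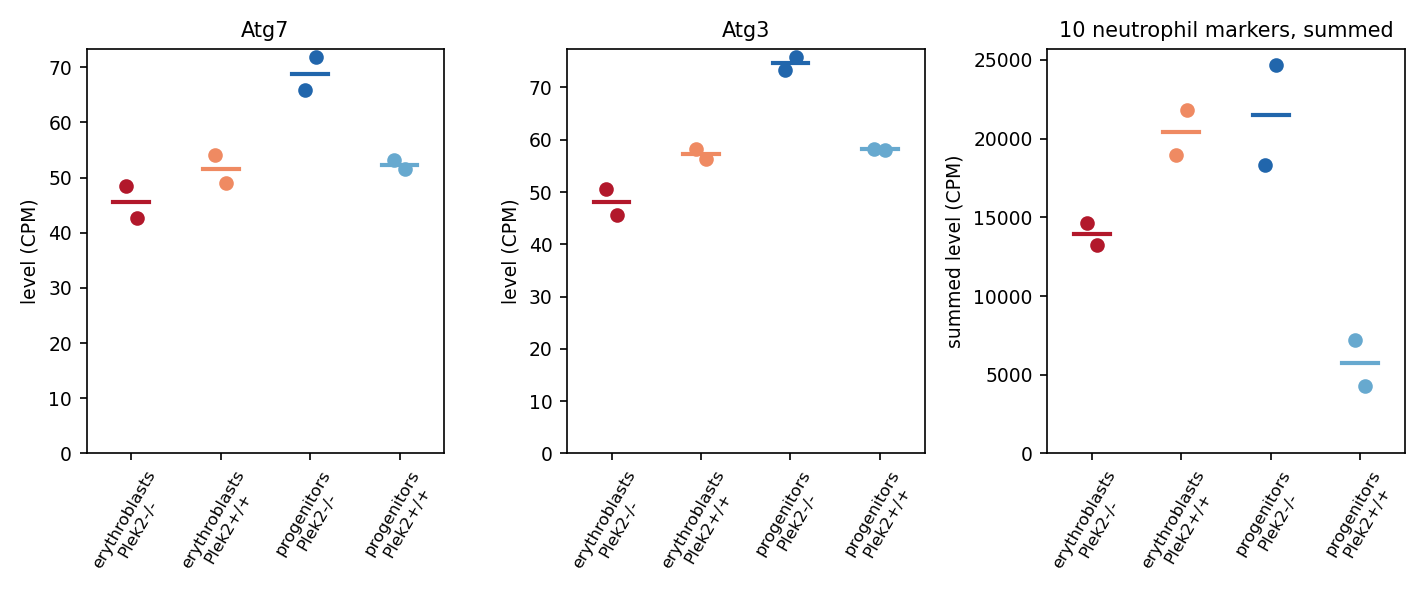
Atg7 and Atg3 (CPM) and the summed level of 10 neutrophil markers (CPM) in the 8 libraries; dots are libraries and bars means of 2. In progenitors the libraries labelled Plek2-/- lie above those labelled Plek2+/+ in all 3 panels, and in erythroblasts they lie below.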

How the data were processed

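The authors deposited a table of raw counts, whole numbers of reads per gene for 23337 genes in 8 libraries. Per the submitters' processing notes, the tools were STAR 2.5.2a, cutadapt 1.13, DESeq2 1.14.1 and HTSeq 0.6.1pl, on build mm10. Which annotation and strand setting were used is not given in the sources read. The normalized table was not used.

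From the counts, edgeR 4.0.16 in R 4.3.3 (TMM, filterByExpr with a count minimum of 10, quasi-likelihood test, Benjamini-Hochberg over all genes tested) gave genotype effects from the 4 libraries of each population, and population contrasts and the interaction from 1 fit of 8 libraries. Biological coefficients of variation were 8.12% (erythroblasts), 7.17% (progenitors) and 7.62% (all 8). SEs are the log2 fold change over the root of F. Replicates differed by more than counting error (chi-square over its degrees of freedom, 5.92 to 16.5). Reads carry no molecular identifiers. Alternatives were other scalings, no filter, DESeq2 1.42.0, other sets of libraries in the fit, a replicate block and leaving out each library.

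The 10 genes and all lists were chosen with earlier results of these data known. From each list up to 3 called genes with the lowest adjusted p were named, and for the populations the 3 with the largest fold called alike in both labels. 1 called gene of these lists is not reported here.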

Additional observations from a re-analysis of the deposited data

Results flagged for a closer look

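The difference between labels (Plek2-/- over Plek2+/+, log2) was unlike in erythroblasts and progenitors for 5 of the genes named, each by the interaction term of the edgeR fit. These are the 1 call of the 10 genes and the 4 of 104 other pathway genes (3.8%), where 5.55% of 13365 genes were called and 711 of those 742 calls were negative. Atg7 was the single one of the 10 genes described, with -0.5775 (SE 0.133, adjusted p = 0.021): it was 1.35-fold higher in progenitors labelled Plek2-/- and -0.17 on the log2 scale in erythroblasts (adjusted p = 0.498). Its partner in lipid conjugation, Atg3, had -0.6148 (adjusted p = 0.00671). Mlst8 of the mTOR complexes had -0.6966 (adjusted p = 0.00284), Fam134b, a receptor for the endoplasmic reticulum, -0.7349 (adjusted p = 0.0181), and Tfeb, a transcription factor of lysosomal genes, -0.6977 (adjusted p = 0.0282). Left out one at a time, the libraries kept the call of Mlst8 in 8 of 8 cases, of Atg3 in 7, of Fam134b in 5, of Atg7 in 4 and of Tfeb in 3. Fam134b lost it without replicate 2 of the erythroblasts labelled Plek2+/+, replicate 2 of the progenitors labelled Plek2-/- or replicate 2 of those labelled Plek2+/+ (adjusted p = 0.0504 to 0.117), and Tfeb without replicate 2 of the erythroblasts labelled Plek2-/-, replicate 1 of those labelled Plek2+/+, replicate 2 of the progenitors labelled Plek2-/- or either of those labelled Plek2+/+ (adjusted p = 0.062 to 0.147).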

How the results depend on the processing

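With 2 libraries a group, genotype counts hang on single libraries, and Bnip3 on few reads; the population contrast hangs on the scaling. Over the log2 fold changes named, 534 values under alternatives other than a left-out library kept direction and side of the threshold, 11 lost a call, 8 gained one and 3 turned: Atg7 in the population contrast of the Plek2+/+ label (0.007104 with DESeq2's size factors, 0.001086 with DESeq2, against -0.02) and Gabarapl1 there (-0.2213 on library totals). The cause was not tested.

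In progenitors the 5 other pathway calls became 3 on library totals, 15 without the filter and 2 with all 8 libraries in the fit. Calls over all genes went from 646 to 660, 1315 and 537 on the same settings. The 1 call among the 10 genes became 2 without the filter. In erythroblasts the filter's absence gave 1 call among the 10 and 2 among the others. Calls over all genes there went from 348 to 845.

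With 1 library left out, calls among the 10 ranged from 0 to 4 in progenitors and 0 to 1 for the interaction, and those among the other pathway genes from 0 to 6 in erythroblasts, 0 to 29 in progenitors and 1 to 7 for the interaction. Calls over all genes moved on the same settings. In each comparison, the left-out library that gave the most calls among the other pathway genes also gave the most over all genes. These ranges therefore do not mark the listed genes out from the rest. Log2 values whose sign turned ranged as follows. In erythroblasts, Fundc1 ran from -0.1048 to 0.1788, Bnip3 from -1.114 to 0.5644 and Gabarapl1 from -0.05393 to 0.1233. In progenitors, Bnip3l ran from -0.02813 to 0.1706, Ulk1 from -0.03797 to 0.2183 and Map1lc3b from -0.03645 to 0.215. In the population contrast of the Plek2+/+ label, Atg7 ran from -0.03873 to 0.09453. For the interaction, Bnip3 ran from -1.377 to 0.2826, Ulk1 from -0.03457 to 0.2944, Gabarapl2 from -0.1066 to 0.1677, Fundc1 from -0.004981 to 0.3282 and Pink1 from -0.2738 to 0.1578.

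Replicate differences were little correlated between groups (correlations -0.0713 to 0.0832). That does not settle whether samples with the same replicate number share a source, which the labels do not say. With a replicate block the calls among the 10 genes were 0 in erythroblasts, 1 in progenitors, 9 and 8 in the population contrasts (Plek2-/- label, then Plek2+/+ label) and 1 for the interaction, as without it. Of all genes it called 579 in erythroblasts in place of 348 and 813 in progenitors in place of 646. Among the other pathway genes named it ended the call of Prkab1 in progenitors (adjusted p = 0.0501), which was also lost on library totals, with DESeq2 and with all 8 libraries in the fit (adjusted p = 0.0911 to 0.105). Wipi1 lost its call with all 8 libraries in the fit (0.0779), and the Tfeb interaction on library totals (0.0529).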
